A study of Mus musculus with 2 samples.

Results

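Of the 55536 annotated genes in the data, 9 genes of the CXC chemokine family are described here: Cxcl1, Cxcl2, Cxcl3, Cxcl5, Cxcl9, Cxcl10, Cxcl11, Cxcl14 and Cxcl16. They were chosen by gene symbol, with earlier results of these data known, and all 9 were found. The RNA came from macrophages that had been grown from the bone marrow of C57BL/6J mice and then given lipid A, the part of bacterial lipopolysaccharide that activates the receptor Tlr4. The dose was 100 ng/ml and the time 50 min. Ribosomal RNA was depleted from the nucleoplasmic RNA before sequencing, and the label for the cell compartment reads nucleus.

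The 1 group had 2 biological replicates, with 500 ng of RNA as input in replicate 1 and 1 µg in replicate 2. The labels give both replicates the same donor entry and different biosamples, record neither sex nor age, and do not say whether the cells came from separate animals, so the spread between them may be in part technical. No untreated library was analysed here, so the values are levels after lipid A and none is a response to it.

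Chemokines are small secreted proteins that guide leukocytes, and the CXC family is named for a residue between the first cysteines of the mature protein. One branch, with Cxcl1, Cxcl2, Cxcl3 and Cxcl5 in the mouse, carries an ELR motif and draws neutrophils through the receptor Cxcr2. Another, with Cxcl9, Cxcl10 and Cxcl11, is known for induction by interferons and draws activated T cells and NK cells through Cxcr3. In macrophages, Tlr4 signalling through NF-kB and interferon regulatory factors is known to act on genes of both branches.

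Gene-table counts summed to 10342882 in replicate 1 and 20495545 in replicate 2. The median gene with a mean of at least 1 TPM (transcripts per 1000000) was lower in replicate 2, with a log2 ratio of -0.69 to replicate 1. This common shift is part of every SD and every replicate range of a TPM value below. In each library all 10 macrophage markers reached 1 TPM, with summed levels of 3748 and 3092 TPM in replicates 1 and 2. The summed levels were 4.41 and 4.51 TPM for 8 neutrophil markers, where Ltf and S100a8 reached 1 TPM in each library and Ly6g and Retnlg were at 0, and 0.48 and 0.50 TPM for 7 T and NK cell markers, where Cd3e, Cd3g, Nkg7 and Ncr1 were at 0. For 5 B cell markers they were 2.30 and 1.24 TPM, with Pax5 at 0, and for 7 stromal and endothelial markers 1.06 and 0.36 TPM, with Lepr at 0. The 5 platelet markers summed to 30.8 and 24.6 TPM, of which Pf4, also described among the ligands, gave 28.3 and 23.3 TPM.

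The upstream sequences of 5 of the genes show which of them share an NF-kB match. RefSeq promoter entries on GRCm38.p6 matched 6 of the 9 genes, and the 250 bases before the RefSeq start are given for Cxcl2, Cxcl1 and Cxcl3, for Cxcl10 with a different arrangement, and for Cxcl9, which lies beside Cxcl10 in the genome and had few counts. Capitals mark exact matches, on both strands, to the NF-kB consensus. Its pattern here is GGG, A or G, any 2 bases, 2 bases that are C or T, then CC. Capitals also mark exact matches, on both strands, to a simple form of the element bound by interferon regulatory factors. That form is GAAA, any 2 bases, then GAAA. Matches to the NF-kB consensus did not overlap those to this element.
Cxcl2, chr5:90903649-90903898, plus strand: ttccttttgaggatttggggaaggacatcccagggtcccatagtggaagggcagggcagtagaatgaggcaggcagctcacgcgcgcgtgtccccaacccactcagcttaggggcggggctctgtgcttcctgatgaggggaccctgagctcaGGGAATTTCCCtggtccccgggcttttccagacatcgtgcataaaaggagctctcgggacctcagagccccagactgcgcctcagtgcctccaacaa
Cxcl1, chr5:90890995-90891244, plus strand: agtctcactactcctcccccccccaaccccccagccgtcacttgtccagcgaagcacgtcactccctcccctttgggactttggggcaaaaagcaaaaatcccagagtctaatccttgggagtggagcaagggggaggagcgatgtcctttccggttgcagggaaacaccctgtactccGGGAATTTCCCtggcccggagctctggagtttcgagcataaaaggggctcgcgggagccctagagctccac
Cxcl3, chr5:90785851-90786100, plus strand: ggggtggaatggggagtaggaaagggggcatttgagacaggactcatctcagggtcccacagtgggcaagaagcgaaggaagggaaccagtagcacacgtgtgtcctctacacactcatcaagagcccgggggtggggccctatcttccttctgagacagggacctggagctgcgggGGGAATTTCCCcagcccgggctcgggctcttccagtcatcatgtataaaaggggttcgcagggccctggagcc
Cxcl10, chr5:92348890-92349139, minus strand: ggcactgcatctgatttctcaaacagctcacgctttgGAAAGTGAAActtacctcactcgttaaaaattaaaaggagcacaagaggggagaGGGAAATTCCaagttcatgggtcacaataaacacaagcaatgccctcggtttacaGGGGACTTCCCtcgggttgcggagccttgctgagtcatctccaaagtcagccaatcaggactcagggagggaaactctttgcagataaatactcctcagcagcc
Cxcl9, chr5:92328080-92328329, minus strand: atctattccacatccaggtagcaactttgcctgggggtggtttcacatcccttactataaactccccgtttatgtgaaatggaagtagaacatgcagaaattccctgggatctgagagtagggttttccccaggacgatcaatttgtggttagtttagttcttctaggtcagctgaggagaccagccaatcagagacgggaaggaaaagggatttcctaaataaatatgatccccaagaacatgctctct

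The 11 bases GGGAATTTCCC stood in the windows of Cxcl2, Cxcl1 and Cxcl3, beginning 97, 71 and 73 bases before the RefSeq start. From the gene starts of annotation M21, which are used for all gene positions here, the distances were 69, 67 and 75 bases, since the RefSeq starts of Cxcl2 and Cxcl1 lie inside the M21 genes. This run holds 2 overlapping matches to the NF-kB consensus, 1 on each strand. The window of Cxcl10 held GGGAAATTCC, beginning 159 bases before the start, and GGGGACTTCCC, beginning 104 bases before it, with GAAAGTGAAA at 213 bases. No exact match to either motif was found in the window of Cxcl9. Sites that differ from the patterns were not searched, so this does not show that Cxcl9 lacks such sites. The window of Cxcl14, not printed, held GAAACAGAAA at 172 bases and no NF-kB match. Among 32841 RefSeq windows of the same length, 7.25% held the NF-kB consensus and 2.98% held the interferon element. Cxcl2 and Cxcl3, which share the 11-base run, differed 342-fold and 333-fold in level, as described with Cxcl3.

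Cxcl2, a neutrophil attractant that macrophages are known to release early, was the highest of the 9 genes, at 1081 and 673 TPM in replicates 1 and 2. Those levels rest on 13951 and 26891.5 expected counts, and placed the gene 14th and 15th among 22015 nuclear protein-coding genes. It lies on mm10 chromosome 5 from 90903871 to 90905938 on the plus strand (ENSMUSG00000058427.10). Cxcl2 alone held 62.3% and 62.2% of the summed TPM of the 9 genes, which was 1734 and 1082 TPM. In RNA from many cells, a level cannot tell fewer cells with the RNA from less RNA per cell.

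Cxcl1, whose product acts on the same receptor, was second at 290 and 189 TPM, with 3574 and 7045 counts (chromosome 5, 90891241 to 90893115, plus strand, ENSMUSG00000029380.11). Cxcl2 exceeded it 3.72-fold in replicate 1 and 3.55-fold in replicate 2, and the ranges of the 2 genes did not overlap.

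Cxcl3, the third neutrophil attractant with the shared 11-base run, was at 3.16 and 2.02 TPM (chromosome 5, 90786103 to 90789600, plus strand, ENSMUSG00000029379.10). It had 51.0 counts in replicate 1, with an exact 95% Poisson interval of 38.0 to 67.1, and 116 in replicate 2, with an interval of 95.9 to 139. Cxcl2 exceeded Cxcl3 342-fold in TPM in replicate 1 and 333-fold in replicate 2.

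The low level of Cxcl3 was set beside the sequence that it shares with Cxcl2. The coding sequences of both genes were identical at 269 of 300 positions, or 89.7%, against 75.7% for Cxcl1 and Cxcl2 and 72.7% for Cxcl1 and Cxcl3. Of the 31-base words of the Cxcl2 transcripts, 7.59% also occurred in another gene, in each case Cxcl3, so most positions tell the genes apart. The authors' posterior SD of the Cxcl3 count, which covers the division of reads between transcripts, was 0.14 counts in replicate 1 and 0.66 in replicate 2. The kallisto-layout table gave Cxcl3 125 and 135 counts and Cxcl2 20781 and 29316, and thus kept the 2 genes far apart.

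Cxcl5, the fourth member of this branch and known as an epithelial neutrophil attractant, had 3 counts in replicate 1 and 2 in replicate 2, or 0.20 and 0.04 TPM (chromosome 5, 90759360 to 90761624, plus strand, ENSMUSG00000029371.7). Its level was low in both libraries of the main table.

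Cxcl10, the ligand of Cxcr3 also called IP-10, was the third highest gene at 208 and 122 TPM, with 2550 and 4576 counts (chromosome 5, 92346638 to 92348889, minus strand, ENSMUSG00000034855.13). It ranked 189th and 219th among the protein-coding genes. Its replicate range overlapped that of Cxcl1, although Cxcl1 was higher within each library, 1.40-fold in replicate 1 and 1.56-fold in replicate 2.

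The other ligands of Cxcr3 were far lower than Cxcl10. Cxcl11 had 12 counts in replicate 1 (95% interval 6.20 to 20.96) and 37 in replicate 2 (26.1 to 51.0), or 0.78 and 0.67 TPM (chromosome 5, 92359544 to 92365485, minus strand, ENSMUSG00000060183.6). The annotation classes it as a polymorphic pseudogene, and the C57BL/6 strain is known to carry a frameshift in it. Cxcl9, a ligand known for induction by interferon gamma, had 0 counts in replicate 1 and 13 in replicate 2 (6.92 to 22.2), or 0.14 TPM (chromosome 5, 92321347 to 92328079, minus strand, ENSMUSG00000029417.9).

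Replicate 1 allows up to 0.290 counts per 1000000 (CPM) at a count of 0, taking 3 counts as the limit. Cxcl9 in replicate 2 was at 0.634 CPM. The kallisto-layout tables gave Cxcl9 70.3 and 66.2 counts. Their TPM, rescaled over nuclear protein-coding genes, was 3.69 and 2.66, so replicate 2 was the higher one in the main tables only. Such intervals and limits cover only counting error, because without molecular identifiers several reads can stem from 1 molecule.

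Cxcl16 differs from the rest of the family in being made as a membrane protein, which also takes up oxidised lipoprotein and, once shed, acts on Cxcr6. It was the fourth highest gene at 151 and 94.8 TPM, with 3372 and 6356 counts (chromosome 11, 70453983 to 70459984, minus strand, ENSMUSG00000018920.11). Cxcl10 exceeded it 1.37-fold and 1.28-fold in TPM, and the ranges of the 2 genes overlapped. In CPM, which does not divide by length, the order was the reverse, with 326 and 310 CPM for Cxcl16 and 247 and 223 CPM for Cxcl10.

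Cxcl14, known for steady expression in epithelia, had 0 counts in replicate 1 and 1 count in replicate 2 (chromosome 13, 56288643 to 56296551, minus strand, ENSMUSG00000021508.11). It was not detectable above the limit for 0 counts in either library.

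**Figure D1:**
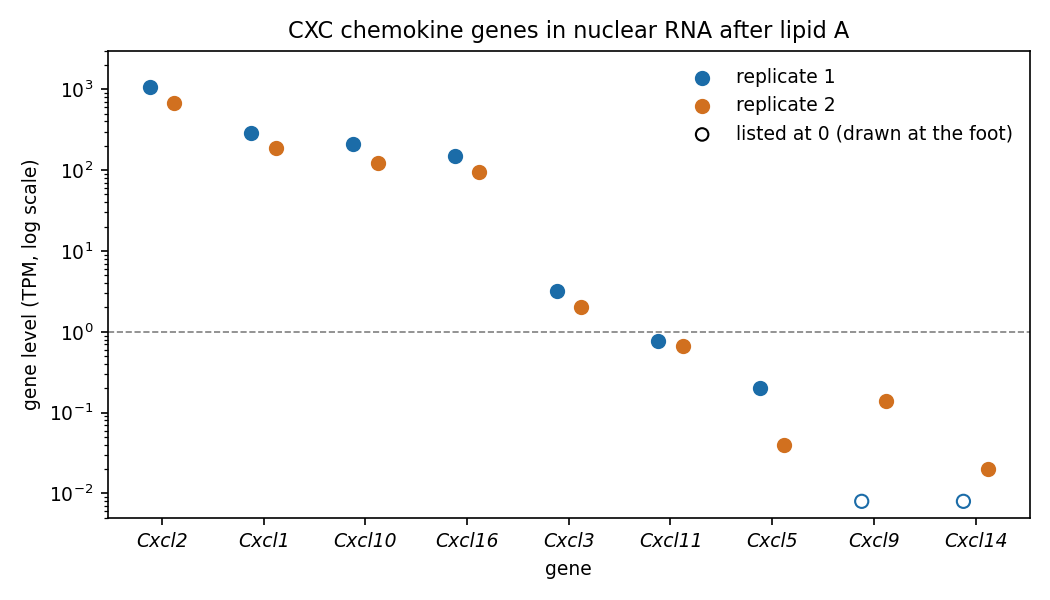
Level of each CXC gene in TPM on a log axis, with 1 point per replicate; genes run in the order of their mean level and values of 0 are drawn as open points at the foot, and the dashed line marks 1 TPM. Cxcl2, Cxcl1, Cxcl10 and Cxcl16 lie between 94.8 and 1081 TPM, and Cxcl3 and the genes after it lie at or below 3.16 TPM.

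In all, 5 of the 9 genes reached 1 TPM in each library, as did 38.7% of nuclear protein-coding genes and 18.6% of all annotated genes. Of the 6 further CXC ligands described below, 1 did, so the share among the 9 does not stand for the whole family. The number among the 9 was 4 in the kallisto-layout tables, 6 after rescaling TPM over nuclear protein-coding genes, and 6 with CPM in place of TPM. The mean levels were 877 ± 288 TPM for Cxcl2, 240 ± 71.3 for Cxcl1, 165 ± 60.9 for Cxcl10, 123 ± 39.9 for Cxcl16 and 2.59 ± 0.806 for Cxcl3 (SD, n = 2). The first 4 held 99.8% of the summed TPM in replicate 1 and 99.7% in replicate 2. Between Cxcl16 and Cxcl3 lay a gap of 47.9-fold and 46.9-fold. Neighbours whose replicate ranges overlapped were Cxcl1 and Cxcl10, Cxcl10 and Cxcl16, Cxcl5 and Cxcl9, and Cxcl9 and Cxcl14. With 2 values per gene, no exact permutation test could pass 0.05, and none was run.

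The 5 genes at 1 TPM or more differed little from each other in how they moved between the replicates. Relative to the median of all genes, the log2 TPM ratio of replicate 2 over replicate 1 was -0.08 for Cxcl10, 0.01 for Cxcl2, 0.02 for Cxcl16, 0.05 for Cxcl3 and 0.08 for Cxcl1. None of the 5 lay more than 2-fold from the median ratio, where 11.1% of the 11532 genes with a mean of at least 1 TPM did. That share counts genes at 0 TPM in 1 library, and none among 5 genes is near it. Cxcl2, Cxcl1, Cxcl10 and Cxcl16 are also high genes. The median protein-coding gene at 1 TPM or more in both libraries was at 8.99 and 5.81 TPM. The median distance from that ratio was 0.35 on the log2 scale over 11380 genes with a value above 0 in both libraries, and 0.32 over 9147 protein-coding genes. With count scaling by edgeR or DESeq2 the highest of the 5 ratios was 0.30 and 0.27. In the kallisto-layout tables all 5 ratios lay above the median, from 0.22 to 0.26, and that of Cxcl10 changed sign to 0.26.

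**Figure D2:**
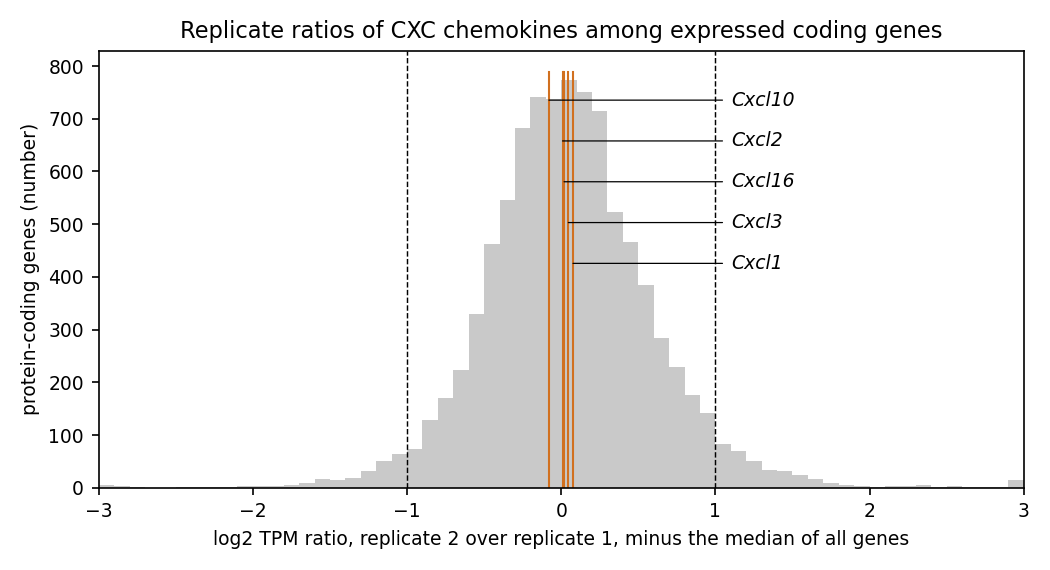
Histogram of the log2 TPM ratio of replicate 2 over replicate 1, minus the median of all genes, over protein-coding genes with a mean of at least 1 TPM; end bars hold all values beyond the axis, coloured lines mark the 5 CXC genes at 1 TPM or more, and dashed lines mark 2-fold. The 5 lines lie between -0.08 and 0.08.

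The genes stand in groups along the genome. On chromosome 5, Cxcl5, Cxcl3, Cxcl1 and Cxcl2 lie within 146.6 kb and on 1 strand, with 7 other annotated genes between them. Cxcl1 and Cxcl2 are 10.8 kb apart, with an annotated rRNA gene at 0 counts in both libraries between them, and 101.6 kb separate Cxcl3 from Cxcl1. Of the 7 other genes, Pf4 reached 1 TPM in each library. The gap from Cxcl2 to Cxcl9 is 1415 kb. Cxcl9, Cxcl10 and Cxcl11 then fill 44.1 kb on the minus strand. On the plus strand, Art3 overlaps Cxcl10 and Cxcl11, and Gm2673 overlaps Cxcl11. The 208 and 122 TPM of Cxcl10 stood between a gene with 0 and 13 counts on 1 side and a gene with 12 and 37 counts on the other.

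RNA of the nucleoplasm can hold introns that are not yet removed, and the annotation holds isoforms to which such reads can be assigned. The 9 genes have 23 annotated isoforms, of which 12 are protein-coding and 9 are classed as retained intron. For Cxcl1, Cxcl2, Cxcl3 and Cxcl10 the annotation lists an isoform of 1 exon that holds all 3 introns and covers 99.02% to 100% of the gene. Only 24 protein-coding genes of the annotation have such an isoform over at least 95% of the gene. Of these, 7 reached 1 TPM in each library, and 4 of the 7 are the CXC genes named.

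**Figure D3:**
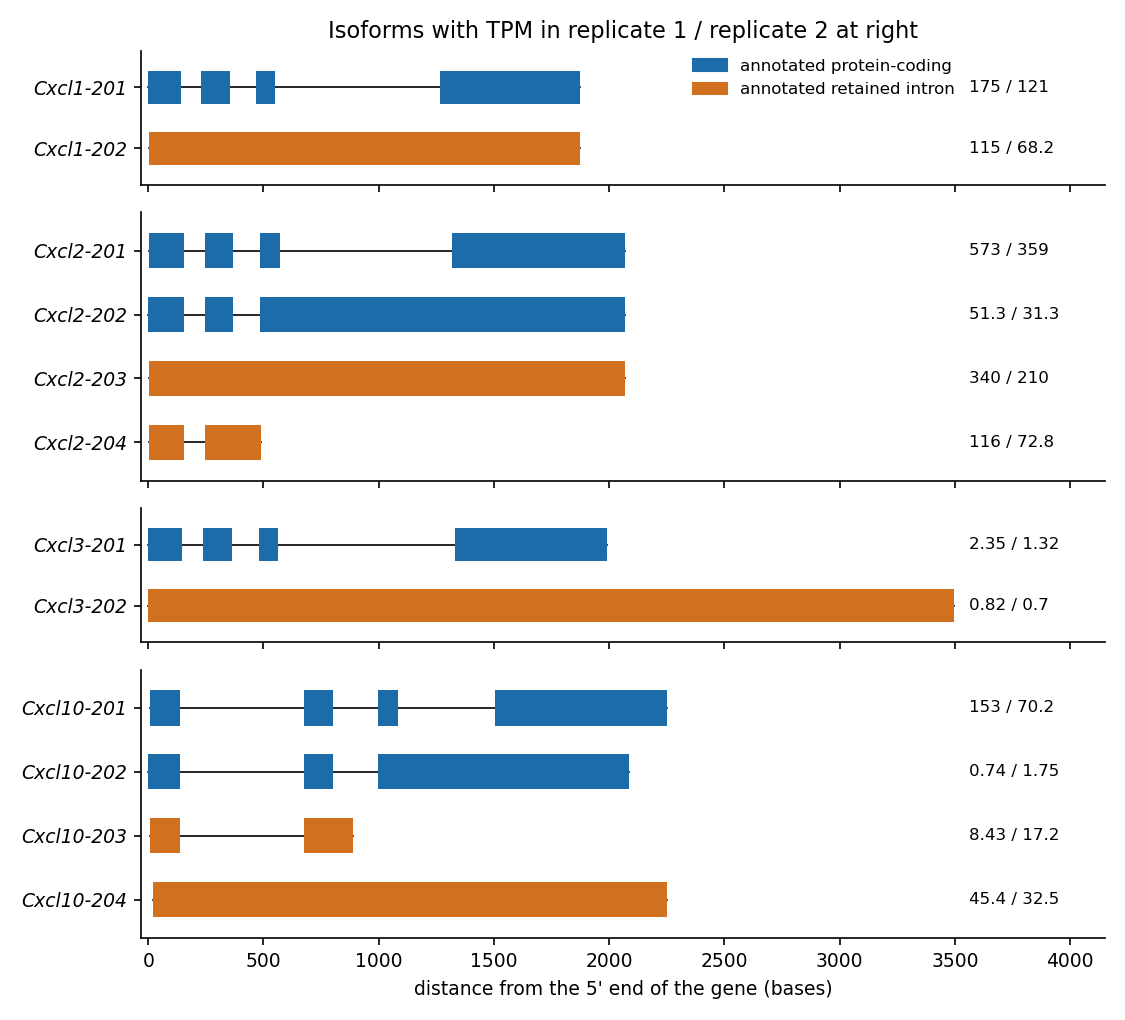
Exon maps of the annotated isoforms of Cxcl1, Cxcl2, Cxcl3 and Cxcl10 against the distance in bases from the gene's 5' end, with boxes for exons, lines for introns, and the TPM in replicates 1 and 2 at the right. The 1-exon isoforms run through all 3 introns, and that of Cxcl3 also runs past the end of the spliced isoform.

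The ends of the introns show what tells spliced from unspliced RNA. For Cxcl2, and for the third intron of Cxcl3, 12 bases on each side of the junction are printed as annotated, with the intron in capitals.
Cxcl2 intron 1, spliced: accaggctacaggggctgttgtgg
Cxcl2 intron 1, unspliced: accaggctacagGTGGGATTCGGA
Cxcl2 intron 2, spliced: gacagaagtcatagccactctcaa
Cxcl2 intron 2, unspliced: gacagaagtcatGTGAGTGTCTCC
Cxcl2 intron 3, spliced: gatactgaacaaaggcaaggctaa
Cxcl2 intron 3, unspliced: gatactgaacaaGTGAGTCGCGAT
Cxcl3 intron 3, spliced: gatactgaagagcggcaagtccag
Cxcl3 intron 3, unspliced: gatactgaagagGTGAGTGGTGCT
The introns of Cxcl2 lie on mm10 at chr5:90904024-90904115, chr5:90904240-90904356 and chr5:90904441-90905188, and have 92, 117 and 748 bases. The spliced junctions of introns 1 and 2 were the same 24 bases in Cxcl2 and Cxcl3, and only that of intron 3 differed.

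Unspliced isoforms took 40.2% to 67.9% of the counts of the 4 genes. The medians over the 7 expressed genes with such an isoform were 56.1% and 55.3% in replicates 1 and 2. Since 4 of the 7 are these genes, the medians are no independent background. Over 5569 protein-coding genes with a retained-intron isoform of any length, the median share of counts in such isoforms was 13.9% and 15.6%. Cxcl2-203, the unspliced isoform of Cxcl2, held 340 and 210 TPM in replicates 1 and 2, beside 573 and 359 TPM for the spliced coding isoform Cxcl2-201. It thus had 31.5% and 31.2% of the gene's TPM. As a share of counts it had 50.6% (95% Clopper-Pearson interval 49.7 to 51.4) and 49.7% (49.1 to 50.3). Such intervals treat assigned counts as independent draws and leave out the division of reads between isoforms, so they are too narrow. The authors' posterior SD, which covers that division, was 124 counts of 7054 in replicate 1 and 124 of 13377 in replicate 2. The share of counts is larger because the unspliced isoform is longer.

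For Cxcl1, the unspliced Cxcl1-202 held 115 and 68.2 TPM, against 175 and 121 TPM for the coding Cxcl1-201. Its share of counts was 59.6% (58.0 to 61.2) in replicate 1 and 55.3% (54.1 to 56.5) in replicate 2. The unspliced isoform of Cxcl3, Cxcl3-202, was at 0.82 and 0.70 TPM and had 58.9% (44.2 to 72.4) and 67.9% (57.9 to 75.7) of counts, with wide intervals from few counts. It also runs past the end of the spliced Cxcl3-201, so reads there add to its share.

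For Cxcl10, the unspliced Cxcl10-204 held 45.4 and 32.5 TPM, against 153 and 70.2 TPM for the coding Cxcl10-201. Its share of counts was 40.2% (38.2 to 42.1) in replicate 1 and 49.3% (47.8 to 50.7) in replicate 2. These intervals cover counting error within a library, not the division of reads between isoforms, and do not test a difference between the replicates. The annotation has no such isoform for Cxcl16. There, the retained-intron isoform Cxcl16-203, which holds intron 2, had 13.4 and 24.1 TPM, or 6.44% (5.63 to 7.32) and 19.0% (18.0 to 20.0) of counts. The kallisto-layout tables gave it 23.5% and 35.3% of counts, and gave Cxcl10-204 46.7% and 53.5%, Cxcl3-202 84.5% and 69.6%, Cxcl1-202 58.2% and 55.5%, and Cxcl2-203 49.1% and 52.2%. The share of Cxcl16-203 thus depends most on the quantification among the 5 isoforms, in ratio.

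The share of TPM in all isoforms that are not protein-coding was 42.2% and 42.0% for Cxcl2 and 39.6% and 36.0% for Cxcl1. It was 25.9% and 34.7% for Cxcl3, 25.9% and 40.8% for Cxcl10, and 37.0% and 44.4% for Cxcl16. In these tables the values of Cxcl2 were nearly equal in both libraries, and those of Cxcl10 lay farthest apart. In the kallisto-layout tables Cxcl3 lay farthest apart, with 56.8% and 36.6%, which turns its direction, and Cxcl1 differed least, with 38.2% and 36.4%. Counting retained-intron isoforms alone, the share of Cxcl10 was 15.0 percentage points higher in replicate 2 than in replicate 1 and that of Cxcl16 16.6 points higher. Over 5569 protein-coding genes with a retained-intron isoform, the median difference was 1.32 points, and the range from the 5th to the 95th percentile, -17.7 to 22.5 points, holds both values. The median retained-intron share of those genes was 25.3% of TPM in replicate 1 and 28.4% in replicate 2. Of the TPM of Cxcl10, the unspliced Cxcl10-204 had 21.8% in replicate 1 and 26.7% in replicate 2. Cxcl10-203, a retained-intron isoform of 344 bases that holds no whole intron, had 4.06% and 14.1%. The larger part of the 15.0 points for Cxcl10 thus lay in Cxcl10-203, which had only 0.471% and 2.03% of the gene's counts.

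**Figure D4:**
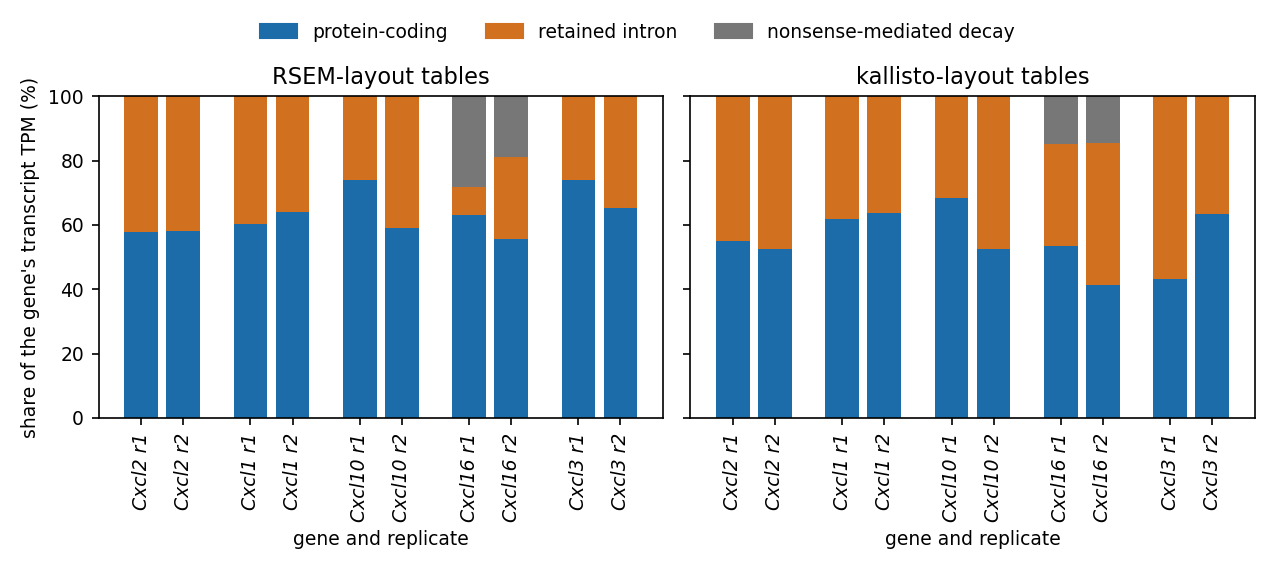
Share of each gene's transcript TPM by isoform class for Cxcl2, Cxcl1, Cxcl10, Cxcl16 and Cxcl3, in percent, as stacked bars for each replicate (r1, r2) and each quantification. Retained-intron isoforms are present in every bar, and in the RSEM-layout tables the bars of Cxcl2 differ least between the replicates, at 42.2% and 42.0%.

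Counting only isoforms that hold no whole intron left the order of the 5 genes as it was. Cxcl2 then had 573 and 359 TPM, Cxcl1 175 and 121 TPM, Cxcl10 162 and 87.4 TPM, Cxcl16 138 and 70.7 TPM, and Cxcl3 2.35 and 1.32 TPM. These are not all coding isoforms. The values of Cxcl10 include Cxcl10-203, classed as retained intron, at 8.43 and 17.2 TPM. Those of Cxcl16 include Cxcl16-202, classed as nonsense-mediated decay, at 42.5 and 18.0 TPM. The TPM of the unspliced isoform relative to isoforms with no whole intron was 0.594 and 0.585 for Cxcl2, 0.655 and 0.563 for Cxcl1, 0.349 and 0.530 for Cxcl3, and 0.281 and 0.372 for Cxcl10. Cxcl10 had the lowest ratio of the 4 in both libraries.

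Each library was also deposited in a kallisto-layout table, whose counts on gene rows were 1.90-fold and 1.41-fold those of the main table in replicates 1 and 2. After rescaling TPM over nuclear protein-coding genes in both, the 5 CXC genes at 1 TPM or more lay within 2-fold in both libraries, as did 91.3% of protein-coding genes at that level. Their ratios, kallisto-layout over main table, ran from 0.573 for Cxcl10 in replicate 1 to 0.934 for Cxcl16 in replicate 2. On TPM as deposited, none of the 9 genes was within 2-fold in both libraries.

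Of the genes of low count, Cxcl5, Cxcl9 and Cxcl11 differed far more between the quantifications. Cxcl3 did not, with ratios of 0.657 and 0.712 on rescaled TPM. Cxcl5 had 147 and 65.3 counts in the kallisto-layout table, 48.9-fold and 32.7-fold those of the main table. Cxcl11 had 103 and 131 counts there, 8.56-fold and 3.54-fold as many, and Cxcl9 differed as given above. On rescaled TPM, Cxcl5 was 19.8-fold and 21.7-fold higher and Cxcl11 3.55-fold and 2.03-fold higher. Among 3257 protein-coding genes with counts but below 1 TPM in both libraries, 29.2% were more than 2-fold higher in both.

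Cxcl5 shared 0.871% of its 31-base words with other genes. For Cxcl11, 42.2% of words were shared when both strands are read and 2.32% when only its own strand is. Gm2673, a partner on the opposite strand, had 0 counts in both main tables and 112 and 50.9 in the kallisto-layout tables. The part of such sharing in the differences was not tested.

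**Figure D5:**
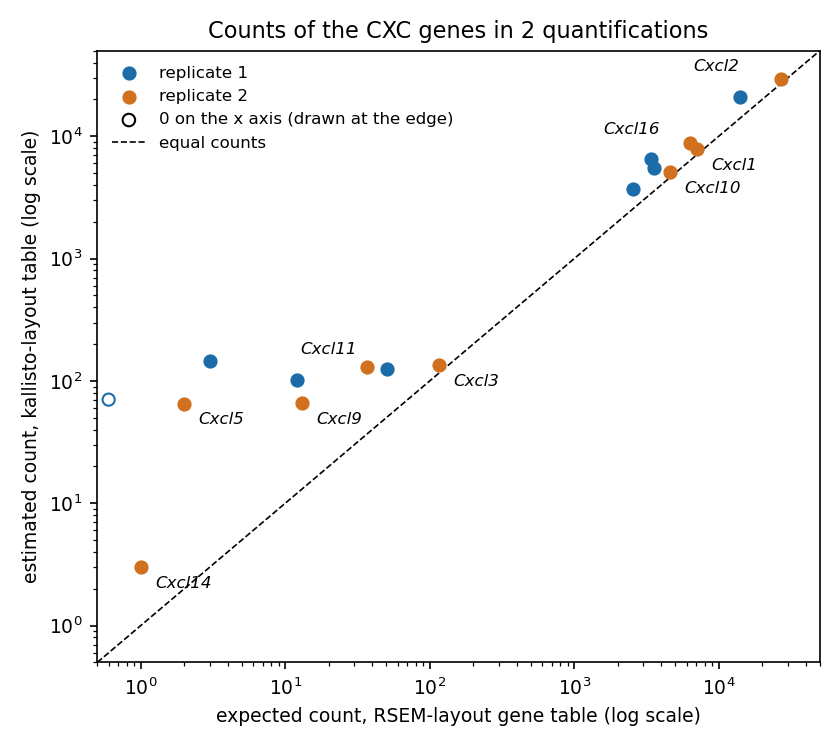
Estimated counts of the kallisto-layout table against expected counts of the main table for the 9 CXC genes, on log axes, with 1 point per gene and replicate and a dashed line of equal counts. All points drawn lie above the line. Cxcl2, Cxcl1, Cxcl10 and Cxcl16 lie within 1.95-fold of it, Cxcl3 lies 2.45-fold and 1.17-fold above it in replicates 1 and 2, and Cxcl5, Cxcl9 and Cxcl11 lie farther above it.

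Partners on the opposite strand also touch Cxcl10 and Cxcl16, and no source used here gives the strand setting of the counting. Art3, whose span covers all of Cxcl10 and Cxcl11, had 79.1 and 123 counts, beside 2550 and 4576 for Cxcl10. Zmynd15 overlaps 552 bases of Cxcl16 and had 137 and 575 counts, beside 3372 and 6356 for Cxcl16. Without strand, reads that fit transcripts of both genes of a pair cannot be told apart. With both strands read, 4.47% of the 31-base words of Cxcl10 occurred in Art3 transcripts. For Cxcl16, 18.5% occurred in Zmynd15 transcripts.

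Genes that act with the CXC chemokines were read from 3 fixed lists. Of the 6 other CXC ligands, 1 reached 1 TPM in each library, and it was Pf4, platelet factor 4, at 28.3 and 23.3 TPM from 97 and 276 counts. Ppbp, a further platelet ligand, had 1 and 3 counts, and Cxcl12, the ligand of Cxcr4, had 1 in each library. Cxcl13, Cxcl15 and Cxcl17 had 0 counts in both main tables, whereas the kallisto-layout tables gave Cxcl15 79.6 and 62.5 counts.

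Of the 8 receptors, 2 reached 1 TPM in each library. Cxcr4 was at 24.3 and 18.4 TPM, and Cxcr3, the receptor of Cxcl9, Cxcl10 and Cxcl11, at 1.06 and 1.36 TPM from 18 and 71 counts. Cxcr6, the receptor of Cxcl16, was at 0.74 and 0.57 TPM. Cxcr2, through which Cxcl1 and Cxcl2 act, had 1 and 4 counts. Cxcr1, Cxcr5 and the atypical receptors Ackr1 and Ackr3 had 0 counts in both libraries. In the main tables Cxcr2 and Cxcr6 were thus below 1 TPM, while their ligands Cxcl1, Cxcl2 and Cxcl16 were at 94.8 TPM or more. The kallisto-layout tables gave Cxcr2 182 and 139 counts, 58.9-fold and 22.5-fold higher on rescaled TPM, so its level depends on the quantification. Cxcr6 had 45 and 46 counts there. Cxcr3 was at 0.557 and 0.274 TPM there, and thus below 1 TPM in both libraries. In the main tables, rescaling alone brought Cxcr6 and Dpp4 to 1 TPM or more in both libraries.

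Of 3 proteases known to process CXC ligands, Adam17 was at 95.5 and 69.3 TPM and Adam10, which sheds Cxcl16, at 16.9 and 10.1 TPM. Dpp4, which trims ligands of Cxcr3, was at 0.62 and 0.22 TPM. In TPM both Adam genes were below Cxcl16 in each library, whereas in CPM Adam17, at 371 and 391, was above Cxcl16.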

How the data were processed

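Nucleoplasmic RNA was measured in 2 libraries of 1 group. Per the file headers, the deposited tables give expected counts and TPM per gene and per transcript in the RSEM layout. A further deposited table per library gives estimated counts and TPM per transcript in the kallisto layout. The authors' posterior SD of a count was read as a score in counts. The authors' readme files name mm10 and annotation M21; for programs, trimming, strand and filters nothing is stated in the sources used here. A TPM value is a count per effective length and is relative to all other RNA, so a few abundant short RNAs lower every other TPM. Rows naming no gene held 0.504% and 0.0968% of counts and were left out of CPM.

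Symbols, isoforms and coordinates came from GENCODE M21, and promoters from RefSeq. Values were summarised with Python 3.11.15, pandas 2.3.3 and scipy 1.17.1. Expected counts were rounded to whole numbers for the intervals of shares and for scaling with edgeR 4.0.16 and DESeq2 1.42.0, which was used only as an alternative for the replicate ratio. No test between groups was possible. The named genes were all 9 members, 17 context genes, and genes inside the chromosome 5 clusters at 1 TPM or more. The opposite-strand partners Art3, Gm2673 and Zmynd15 were added after their values were seen. The members and lists were chosen with earlier results of these data known. The ratio calculation was tested on simulated data.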

Additional observations from a re-analysis of the deposited data

How the results depend on the processing

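No paired analysis was possible because both libraries belong to 1 group. Of 35 alternatives to the main values, 26 stayed within a set limit and 9 moved, 6 of them higher. The limit was the SD between replicates for levels and shares, and 1.5-fold for numbers of genes or pairs. For the replicate ratio it was the median distance over protein-coding genes. Leaving out 1 replicate cannot move a mean level beyond the SD of 2 values. Rescaling nearly cancels in a ratio taken relative to the median. The 26 therefore do not measure how robust the values are. The summed level of the 9 genes, 1408 TPM on average, was 618 TPM in the kallisto-layout table, 6487 TPM after rescaling over nuclear protein-coding genes, and 846 TPM in isoforms without a whole intron, an alternative chosen after seeing the data. Leaving out 1 replicate gave 1082 to 1734 TPM. Of the 8 neighbouring pairs in the order, 5 were kept in the kallisto-layout table, where Cxcl16 stood above Cxcl10, and Cxcl5 and Cxcl11 above Cxcl3 by their means though not in replicate 2, and 7 were kept without either replicate. The median share of TPM outside protein-coding isoforms was 37.8%, against 46.1% in the kallisto-layout table and 37.0% to 40.8% with 1 replicate left out. The number of genes within 2-fold between the quantifications was 0 on TPM as deposited, 5 after rescaling, and 3 to 5 with 1 replicate left out. The cause of these moves was not tested, other than that rescaling divides by a smaller total and the isoform alternative leaves isoforms out. Depth limits Cxcl3, Cxcl5, Cxcl9, Cxcl11 and Cxcl14, which rest on 0 to 116 counts.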
